A study of Caenorhabditis elegans with 2 samples.

Results

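Small nucleolar and small nuclear RNA genes held 247 of the 29396 nuclear candidate peaks of a ChIP-seq experiment on the transcription factor CEH-34 in Caenorhabditis elegans embryos. A candidate peak was counted when its summit, the position of its highest signal, lay within 200 bp of a gene annotated as snoRNA or snRNA and not within 200 bp of a tRNA gene, a condition that removed 1 peak. Of these peaks, 188 were nearest to a snoRNA gene and 59 to a snRNA gene. CEH-34 is a homeodomain factor related to sine oculis of Drosophila, and is known for its role in the developing pharynx and its neurons. Chromatin came from whole hermaphrodite late embryos of the transgenic strain OP524, with genotype unc-119(tm4063) III; wgIs524, collected 3.5 hours after synchronisation by bleaching. The transgene carries ceh-34 with GFP and FLAG at the C terminus, and precipitation used an antibody to GFP, although another label field names ceh-34 as the antibody. There were 2 biological replicates of this 1 group and no second condition, and signal from an untagged or input sample was not used here. Because whole embryos were used, a peak present in few cells and a weak peak in many cells cannot be told apart.

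SnoRNAs guide the chemical modification of ribosomal and spliceosomal RNA, and each works in a particle with either fibrillarin or dyskerin. SnRNAs form the core of the spliceosome, and in nematodes the spliced leader RNAs, encoded by the sls-1 and sls-2 genes, are annotated as snRNAs and donate the leader that is joined to the start of many messenger RNAs by trans-splicing. Many snoRNAs are cut from introns of host genes, while others have promoters of their own. Genes read by RNA polymerase III such as tRNA genes carry internal promoter letters called the A box and the B box, which are bound by the factor TFIIIC, whereas snRNA genes use an element upstream of the gene that is bound by the SNAP complex.

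The 100 bases before the annotated 5′ end are printed first, because the position and letters of the strong peaks at snoRNA genes recurred there. Sequences are from the RefSeq genome of build WBcel235 (ce11), read 5′ to 3′ on the gene's own strand. The first set shows snoRNA genes whose upstream window held the letters GGNNNAGTG, a form of the A box, followed by GTTCNANNC, a form of the B box, where N is any base. All 5 had a peak in the authors' thresholded list, and the capitals mark these forms and, at T03F7.8, also the letters TGTCNGC. The windows were chrV:11314158-11314257 on the plus strand for T03F7.8, chrV:19643188-19643287 on the minus strand for Y43F8C.22, chrII:5105232-5105331 on the minus strand for C04G6.12, chrV:15191094-15191193 on the minus strand for Y75B12B.12 and chrIII:502704-502803 on the plus strand for F30H5.4.
T03F7.8: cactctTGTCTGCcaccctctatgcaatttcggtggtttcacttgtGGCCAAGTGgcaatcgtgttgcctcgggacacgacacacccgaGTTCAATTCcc
Y43F8C.22: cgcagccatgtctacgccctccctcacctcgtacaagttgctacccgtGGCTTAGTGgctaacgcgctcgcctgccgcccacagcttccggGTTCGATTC
C04G6.12: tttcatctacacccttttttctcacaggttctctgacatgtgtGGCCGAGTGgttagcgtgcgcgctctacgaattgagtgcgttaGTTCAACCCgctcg
Y75B12B.12: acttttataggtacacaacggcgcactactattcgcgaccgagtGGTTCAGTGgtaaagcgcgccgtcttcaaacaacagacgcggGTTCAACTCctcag
F30H5.4: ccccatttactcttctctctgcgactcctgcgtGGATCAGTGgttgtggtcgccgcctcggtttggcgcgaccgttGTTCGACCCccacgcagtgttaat

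The second set shows a strong snoRNA member without either form, ZK994.7 at chrV:8500479-8500578 on the plus strand, beside W05B2.8, the snRNA gene with the strongest peak, at chrIII:10989579-10989678 on the plus strand. It also holds F54D8.7, another thresholded gene of the same sequence family as W05B2.8, at chrIII:5080899-5080998 on the minus strand. The capitals mark TGTCNGC, which all 3 windows held and for which ZK994.7 was chosen.
ZK994.7: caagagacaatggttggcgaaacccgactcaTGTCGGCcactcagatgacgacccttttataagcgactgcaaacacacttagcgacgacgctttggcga
W05B2.8: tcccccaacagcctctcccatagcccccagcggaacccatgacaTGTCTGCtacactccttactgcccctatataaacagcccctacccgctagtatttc
F54D8.7: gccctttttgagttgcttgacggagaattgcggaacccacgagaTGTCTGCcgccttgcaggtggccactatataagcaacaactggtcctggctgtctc

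The last set shows snoRNA genes with no candidate peak, taken from introns of nol-56 and rpl-6. K07C5.18 was read at chrV:10350913-10351012 on the minus strand and R151.11 at chrIII:7208513-7208612 on the plus strand. Neither window held any of the 3 forms, and both run through host gene sequence.
K07C5.18: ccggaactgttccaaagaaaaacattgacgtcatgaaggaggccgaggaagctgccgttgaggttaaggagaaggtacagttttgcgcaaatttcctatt
R151.11: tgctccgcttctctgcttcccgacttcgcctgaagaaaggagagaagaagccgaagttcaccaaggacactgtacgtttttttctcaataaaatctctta

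The members were stronger than candidate peaks in general and more often in the authors' thresholded list. The authors' thresholded list holds the peaks that passed their test of reproducibility between replicates (irreproducible discovery rate), and 85 of the 247 members, or 34.4% (95% Wilson interval 28.8% to 40.5%), were in it. The same share over all nuclear candidates was 8.47%. At snoRNA genes 68 of 188 members were thresholded (36.2%), and at snRNA genes 17 of 59 were (28.8%). The members' interval overlaps that of the 439 candidates at tRNA genes, of which 174 passed (39.6%, interval 35.2% to 44.3%). It lies above the 5.86% that passed among the 9490 intronic candidates away from structural RNA genes.

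Signal, the authors' own peak height on a scale set within the pooled list, ran from 18.2 to 743 over the members. Its median was 46.5, against 28.2 over all nuclear candidates and 56.3 over the tRNA candidates. The median member lay at the 80.5th percentile of the pooled list. Among the thresholded members the median was 190, against 113 over the 2231 thresholded peaks away from structural RNA genes, and 12 members stood among the 100 strongest nuclear peaks. The members therefore spanned the list from its weakest peaks to near its top, with snoRNA members reaching higher than snRNA members. The weakest nuclear thresholded peak had a signal of 76.51, and the strongest nuclear candidate outside the thresholded list had 76.47. Among nuclear peaks that list thus equals a cut on pooled signal. The shares of peaks in it are therefore no measure of reproducibility apart from signal.

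**Figure D1:**
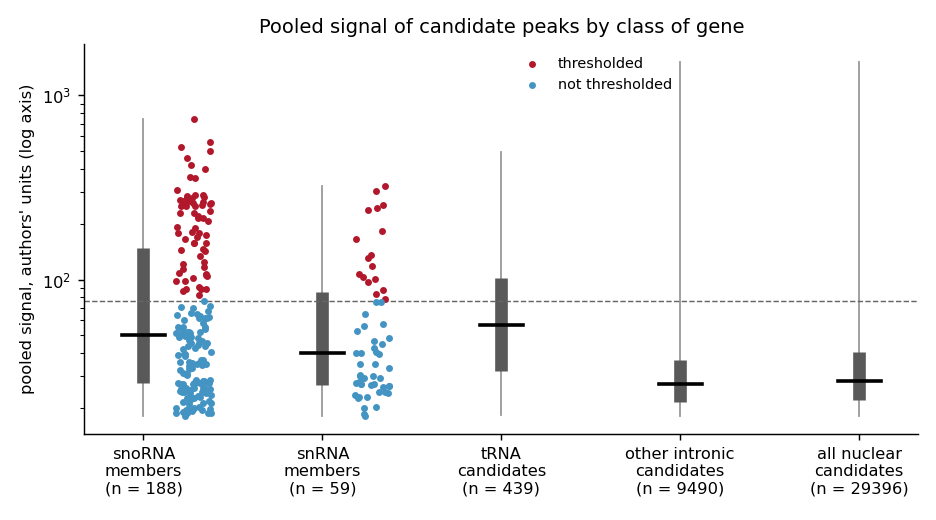
Pooled signal (authors' units, log axis) of snoRNA members, snRNA members, tRNA candidates, other intronic candidates and all nuclear candidates; thin lines span the range, thick bars the middle quartiles, short bars the median, and points are single members. The dashed line marks the weakest nuclear thresholded peak, at 76.5, and 85 of the 247 members lie above it.

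The strongest member spanned the adjacent snoRNA genes C51F7.4 (WBGene00219860) and C51F7.3 (WBGene00014290), which lie on the same strand as frm-7. Its pooled signal was 743, and the replicate lists gave 357 in replicate 1 and 386 in replicate 2. It ranked 5th in the pooled list and in both replicate lists. The summit, at chromosome V position 12303638, lay inside C51F7.4, which overlaps a frm-7 exon, while C51F7.3 lies wholly in a frm-7 intron.

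W03C9.9, a snoRNA gene on chromosome II between coding genes, had a signal of 557, with 273 and 284 in the replicates. T06C12.16, on chromosome V, had a signal of 524, with 234 and 293. T03F7.8, whose window opens the first set of sequences, had a signal of 501, with 216 and 284. All 3 ranked between 10th and 15th of the pooled peaks and stayed among the 27 strongest in each replicate list. T03F7.8 lies in an intron of cutl-18 but on the opposite strand.

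ZK265.10, on chromosome I, followed at 456, with 227 in replicate 1 and 229 in replicate 2. ZK994.7, in an intron of pxn-1 on the same strand, reached 417, with 173 and 240. Y43F8C.22, in an intron of Y43F8C.7, reached 398, with 178 and 223. The latter pair thus had strong upstream peaks inside coding hosts. The next members were T02E1.9 at 360.5, which overlaps an exon of spe-12, and W06H8.17 at 355, between coding genes.

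The remaining snoRNA genes among the 25 strongest members had signals between 259 and 304. In order of signal they were B0334.12 (in an intron of twk-5), H09I01.2, C04G6.12 (mpk-2), M7.15, C27H6.5 (unc-41), C26C6.13, F59C6.15, ZK484.9 (haf-9), T27A3.9, ZK643.9, D1046.6 (cfim-2), T19B4.8, C46C2.8 and F32E10.10. The hosts twk-5, mpk-2 and haf-9 are on the strand opposite to the snoRNA gene, and unc-41 and cfim-2 on the same strand. Only 2 of the 25 strongest members were at snRNA genes, W05B2.8 and sls-2.4.

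Counted by gene rather than by peak, snoRNA genes stood above the genome on the thresholded list. A candidate summit lay within 200 bp of 162 of the 346 snoRNA genes (46.8%, interval 41.6% to 52.1%), against 30.7% of all annotated nuclear genes, and 47.5% of protein-coding genes. A thresholded summit lay there for 67 (19.4%, interval 15.5% to 23.9%), against 4.97% of all genes, 6.32% of protein-coding genes, 4.60% of miRNA genes, 9.53% of ncRNA genes and 28.6% of tRNA genes. The shares over all genes include 15363 piRNA genes, of which 845 had a candidate and 25 a thresholded peak. By candidates alone, then, snoRNA genes did not exceed protein-coding genes, which are longer and so offer a wider window. Of 129 snRNA genes, 47 had a candidate (36.4%) and 13 a thresholded peak (10.1%, interval 5.98% to 16.5%).

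SnoRNA genes were then split by their setting. Of the 124 snoRNA genes between coding genes, 32 had a thresholded peak (25.8%, interval 18.9% to 34.2%). In introns of a host on the same strand the count was 21 of 145 (14.5%, interval 9.67% to 21.1%), and in introns of a host on the opposite strand only it was 7 of 27 (25.9%, interval 13.2% to 44.7%). Another 7 of the 50 that overlap a coding exon had a thresholded peak (14.0%). The differences between these shares were not tested.

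Hosts that encode ribosomal proteins, a common home of snoRNAs in animals, held no thresholded member. Introns of 15 such hosts carried 23 snoRNA genes, of which 4 had a candidate and 0 a thresholded peak (interval 0% to 14.3%). Of the 149 snoRNA genes in other hosts, 28 had a thresholded peak (18.8%, interval 13.3% to 25.8%), so the intervals overlap. This split was chosen after the hosts' values were seen. Only 3 hosts carried at least 3 snoRNA genes. They were nol-56 (4 genes), which encodes a core protein of the snoRNA particle, rpl-6 (3 genes), which encodes a protein of the large ribosomal subunit, and top-2 (3 genes), which encodes DNA topoisomerase II. None of these 10 genes had a thresholded peak, and 1 in nol-56 and 1 in top-2 had a candidate.

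**Figure D2:**
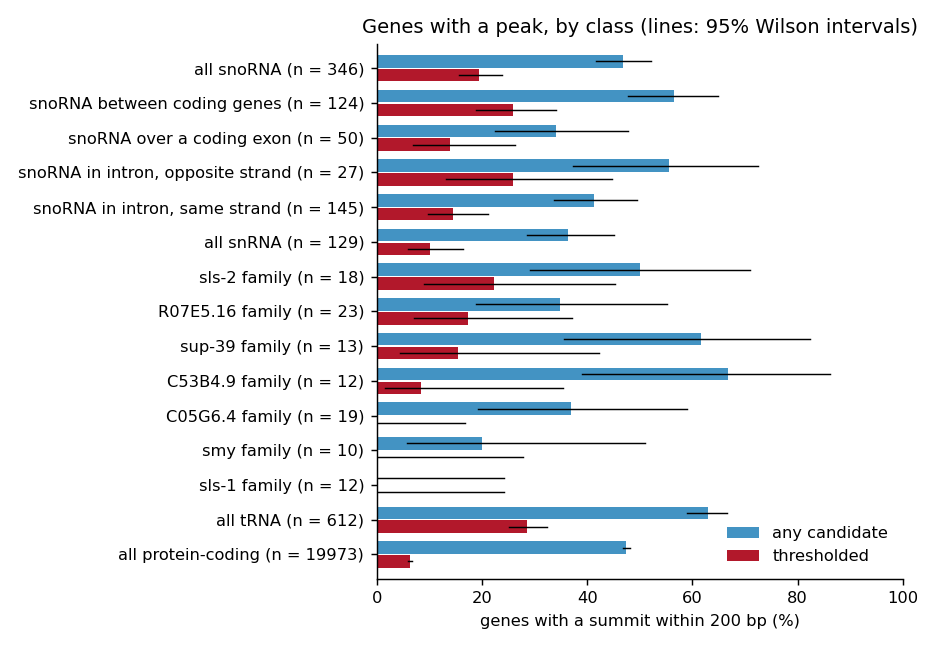
Share of genes with a summit within 200 bp, for any candidate (blue) and for thresholded peaks (red), by class of snoRNA gene, snRNA sequence family and comparison class; black lines are 95% Wilson intervals. Thresholded shares run from 0% in the sls-1, smy and C05G6.4 families to 25.9% at snoRNA genes in introns of opposite-strand hosts, beside 28.6% for tRNA genes.

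By chromosome, thresholded peaks lay at 16 of 74 snoRNA genes on I, 17 of 71 on II, 7 of 54 on III, 11 of 59 on IV and 14 of 55 on V. On X the count was 2 of 33 (6.06%, interval 1.68% to 19.6%). The share on X was the lowest of the 6, and its interval overlaps those of the autosomes.

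Thresholded summits at snoRNA genes gathered just upstream of the gene. Their median position was 44.5 bases before the annotated 5′ end, with middle quartiles from 61.25 to 20.25 bases before it. Of the 68, 60 lay upstream of the 5′ end and 53 (77.9%) within the 100 bases before it, a stretch that makes up 19.1% of the window in which a summit could count. Only 5 lay inside the gene and 3 past its 3′ end. The other 120 snoRNA members were spread through the window, with a median 66.5 bases after the 5′ end, and 28 of them (23.3%) in the 100 upstream bases. The upstream position thus went with the strong peaks, not with candidates as such. Some of the other summits were second summits at genes that also had a thresholded peak, and were kept in these counts. At T03F7.8 such a summit lay 161 bases after the 5′ end, and at T19B4.8 152 bases after it.

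At snRNA genes the picture was more mixed. Of the 17 thresholded summits, 10 lay in the 100 bases upstream, 3 inside the gene and 4 past its 3′ end, and the median was 10 bases before the 5′ end. Among the other 42 the median was 71 bases after it, with 12 in the 100 upstream bases (28.6%).

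**Figure D3:**
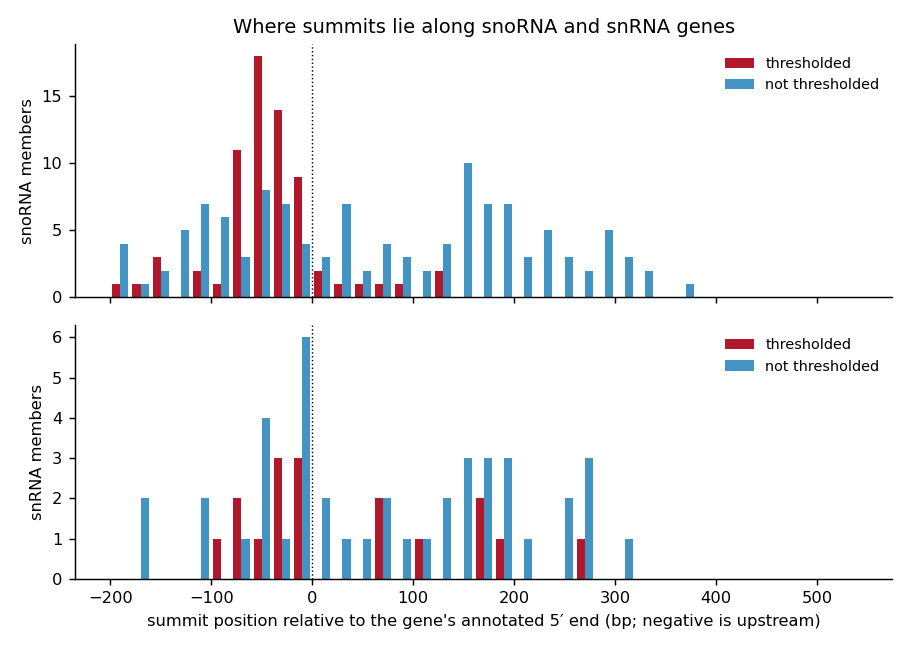
Number of members by the position of the summit relative to the annotated 5′ end of the nearest snoRNA gene (top) or snRNA gene (bottom), in bins of 20 bp, for thresholded and other members. Of 68 thresholded snoRNA summits 53 fall within 100 bp upstream, against 28 of the 120 others.

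Several snRNA genes had paired summits. A gene with 2 thresholded summits was seen in 5 snRNA cases, W05B2.8, C28A5.7, F38E11.10, sls-2.1 and sls-2.4, and in 2 snoRNA cases, W03C9.9 and T02E1.9. At W05B2.8 the summits lay 10 bases before and 192 bases after the 5′ end, with signals of 322 and 246. The distance between the paired summits was 199 to 232 bp, and the smallest distance between any thresholded summits of the whole list was 199 bp, so these pairs sit at or near the closest spacing the list contains. Of the 17 thresholded snRNA members 10 had another thresholded summit within 300 bp (58.8%), against 9.80% of all thresholded peaks and 8.82% of the thresholded snoRNA members.

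Letters like those of a tRNA promoter stood before many of the snoRNA genes with thresholded peaks. The B form GTTCNANNC was found on the sense strand of the 100 upstream bases of 23 of the 67 such genes (34.3%). It was found at 4 of the 95 snoRNA genes with only a weaker candidate (4.21%), at 6 of the 184 without any (3.26%), and at 1.34% of the 45803 other nuclear genes. The A form GGNNNAGTG was found at 18 of the 67 (26.9%), 4 of the 95 (4.21%), 3 of the 184 (1.63%) and 0.729% of the other genes. Both forms were thus more frequent before genes with strong peaks than before the others. They were written after sequences of these same genes had been seen, so the shares are a description only.

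The forms of both boxes that had been listed earlier were also most frequent before thresholded snoRNA genes. GTTCGANNC was found at 15 of the 67 (22.4%), 0 of the 95 and 2 of the 184 (1.09%), against 0.229% of the other genes. TGGCNNAGT was found at 13 (19.4%), 6 (6.32%) and 1 (0.543%), against 0.194%. It lacks the last G of GGNNNAGTG and so is not a narrower version of it, whereas GTTCGANNC is a narrower version of GTTCNANNC. Among all runs of 6 bases, GTTCGA differed most between thresholded snoRNA genes (19 of 67) and those without a peak (4 of 184). This run is contained in the narrower B form.

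Both forms in the order A then B occurred in 12 of the 346 snoRNA windows and in 8 of the 45803 windows of other genes. Of those 12 snoRNA genes 11 had a thresholded peak (91.7%, interval 64.6% to 98.5%), with signals from 114 at ZK546.18 to 501 at T03F7.8. The exception was Y59E1B.14 on X, which had no candidate. Both forms were written after sequences of these same genes had been seen, so this share and its interval are a description only. From the start of the A form to the start of the B form was 42 to 44 bases at the 11 genes, with a median of 43, and the A form began a median of 56 bases before the 5′ end. The summit lay between the starts of both forms in 10 of the 11, and at M106.6 it lay 2 bases farther upstream. In a tRNA gene these boxes lie inside the gene, whereas here the pair lay just before the annotated snoRNA.

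Other snoRNA genes had only a part of this arrangement. With a B form and no A form before it, 12 of 21 had a thresholded peak (57.1%). With an A form and no B form after it, 7 of 13 did (53.8%). With neither form, 37 of 300 did (12.3%, interval 9.08% to 16.5%). Of the 67 thresholded snoRNA genes, 37 thus had neither form, so the letters mark a subset of the strong peaks.

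**Figure D4:**
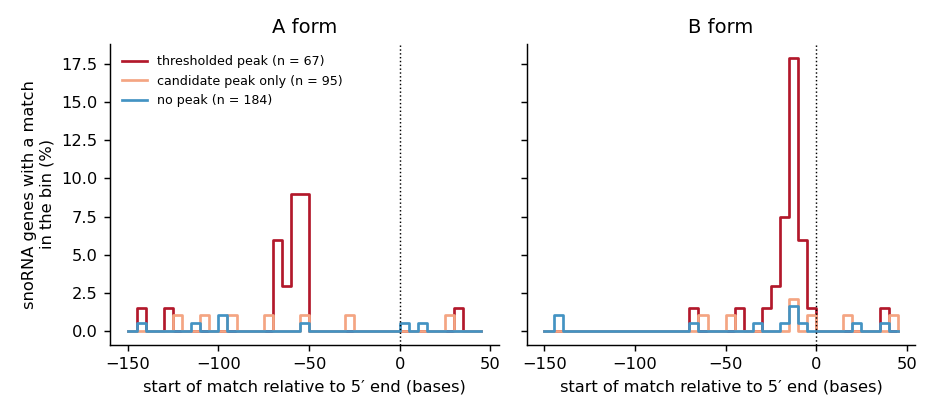
Percent of snoRNA genes with a match to the A form (left) or the B form (right) starting in each bin of 5 bases, relative to the annotated 5′ end, for genes with a thresholded peak (67), with a candidate only (95) and without a peak (184). In the thresholded genes matches gather about 56 bases before the 5′ end for the A form and about 14 before it for the B form.

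The letters TGTCNGC, seen in the second set of sequences, followed another pattern. They stood in the upstream window of 28 of the 129 snRNA genes (21.7%) and 35 of the 346 snoRNA genes (10.1%), against 1.19% of the other nuclear genes, and began a median of 48 and 49 bases before the 5′ end. These letters were chosen after the windows had been read. Of the 35 snoRNA genes with them 7 had a thresholded peak (20%, interval 10.04% to 35.9%), and of the 311 without them 60 did (19.3%, interval 15.3% to 24.0%). A candidate of any strength lay at 23 of the 35 and at 139 of the 311. With these letters, then, the share with a thresholded peak was close in both groups, while the share with a candidate was higher where the letters stood. Among snRNA genes the counts were 4 of 28 with the letters and 9 of 101 without. Of these 28, 10 were sls-1 genes, none of which had a candidate peak, and 9 were of the family of W05B2.8.

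SnRNA genes fall into families of similar copies, grouped here at 70% identity. Counts per family are small, and differences between families were not tested. The family with the strongest peak holds 23 genes, including W05B2.8, R07E5.16, F54D8.7 and C28A5.7, and 22 of them contain ACAGAGA, letters known from U6 snRNA, although the annotation does not name them so. A thresholded peak lay at 4 of the 23 genes, and a candidate at 8. W05B2.8, in an intron of dhc-4, had a signal of 322, with 137 in replicate 1 and 185 in replicate 2. F54D8.7 had a signal of 108, with 44.8 and 67.5. C28A5.7, at the stronger of its summits, and R07E5.16 lay near the threshold, at 97.5 and 87.6. Replicates 1 and 2 gave 23.5 and 70.1 at that summit of C28A5.7, and 49.5 and 40.3 at R07E5.16.

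The spliced leader families differed from each other. Of the 18 sls-2 genes, which encode SL2 RNAs used for genes inside operons, 9 had a candidate and 4 a thresholded peak. sls-2.4 on chromosome I had a signal of 301, with 141 in replicate 1 and 165 in replicate 2. sls-2.1 had 255, with 121 and 136, and sls-2.2 had 237, with 113 and 127. sls-2.8 was weaker at 101, with 50.1 and 50.6. The replicates ordered these 4 genes alike. sls-2.3, which is 97.3% identical to sls-2.2 over the gene, had no candidate peak within 200 bp. It is a close neighbour of sls-2.2 on the opposite strand, starting at position 5544164 of chromosome II, where sls-2.2 ends at 5543707. The second summit of sls-2.2, at 5543867, lies between these genes and beyond 200 bp from sls-2.3. The contrast thus rests on that distance limit.

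None of the 12 sls-1 genes, which encode the main spliced leader SL1, had a candidate peak (Wilson interval 0% to 24.2%). These genes lie within the repeat that also carries the 5S ribosomal RNA genes, every annotated sls-1 copy has an identical copy elsewhere in the genome, and none of the 20 annotated rRNA genes had a candidate either. How reads that match several places were placed is not given in the sources used here, and its part in these counts was not tested. Of the 44 snRNA genes with an identical copy, sls-1 included, 12 had a candidate (27.3%) and 6 a thresholded peak (13.6%). With sls-1 left out, these were 12 of 32 (37.5%) and 6 of 32 (18.8%). Of the 85 with no such copy 35 had a candidate (41.2%) and 7 a thresholded peak (8.24%).

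The sup-39 family also held thresholded members. sup-39 and sup-6 are U1 snRNA genes first found through mutations that suppress splicing defects. Of the family's 13 genes 8 had a candidate and 2 a thresholded peak (15.4%, interval 4.33% to 42.2%), against 10.1% of all snRNA genes. sup-6, in an intron of F58G1.7, had a signal of 166, with 86.3 and 77.8 in the replicates. sup-39, in an intron of C15F1.5, had 131, with 69.7 and 61.7. The sup-39 peak is counted also for mir-1831, which the annotation classes as snRNA and places within 200 bp of the same summit.

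In the remaining families, 1 of the 12 genes of the C53B4.9 family had a thresholded peak, F38E11.10 at 183, with 110 and 84.1 in the replicates. Its weaker thresholded summit, at 118, had 58.2 in replicate 1 and 13.9 in replicate 2. Of the 5 genes of the C52E4.8 family 1 did, C52E4.8 itself at 135, with 73.9 and 64.4. Of the 19 genes of the C05G6.4 family 7 had a candidate and 0 a thresholded peak (interval 0% to 16.8%). SmY RNAs are found with the trans-splicing particles of nematodes. The SmY genes annotated as snRNA, the smy family, had 2 candidates among 10 genes and 0 thresholded peaks (interval 0% to 27.8%). smy-2 and smy-3 are annotated as snoRNAs, and each had a candidate. The smy-2 peak lay just outside the threshold at 70.8, and the smy-3 peak had a signal of 27.4.

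The replicate lists were then compared over the members. A candidate summit lay within 100 bp in both replicate lists for 139 of the 247 members (56.3%), against 57.4% of tRNA candidates. This held for 84 of the 85 thresholded members, whose choice by the authors already used reproducibility, and for 55 of the other 162. Over all thresholded nuclear peaks the share was 95.5%, so the members' share is near the background. Over the 139, the log2 signals had a Pearson correlation of 0.885 and a Spearman correlation of 0.873. Over the 84 thresholded members these were 0.831 and 0.870. Over the 55 others they were 0.0949 and 0.142. These others were set apart by a low pooled signal, which was made from both replicates. Such a split narrows the range and by itself lowers a correlation. The low values therefore cannot show whether the replicates disagreed on the order of the weaker members. These correlations run over peaks of the same pair of libraries and describe only how those libraries ordered them.

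**Figure D5:**
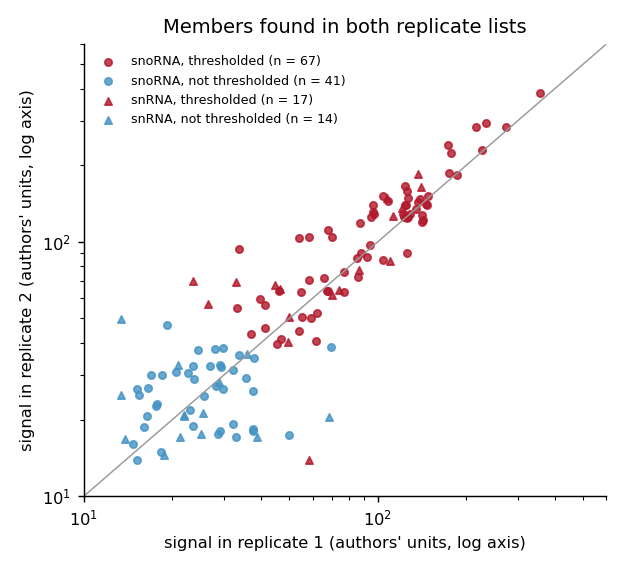
Signal in replicate 1 against signal in replicate 2 (authors' units of each list, log axes) for the 139 members with a summit within 100 bp in both lists; circles are snoRNA members, triangles snRNA members, and the grey line marks equal values. Thresholded members reach 357 and 386, and the 55 others lie in the lower left. Some thresholded members lie far from the line, such as the weaker summit of F38E11.10 at 58.2 and 13.9.

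Near the threshold the members were continuous. The weakest thresholded members were R07E5.16 at 87.6, Y71D11A.7 at 86.5, the weaker summit of C28A5.7 at 83.1, T28B8.11 at 82.1 and the second summit of sls-2.4 at 78.1. Just below were C53B7.8 at 76.4, T08G5.11 at 75.7, the second summit of sls-2.2 at 75.2, C17D12.8 at 72.1 and smy-2 at 70.8. The weakest thresholded peak of the whole nuclear list stood at 76.5. That summit of C28A5.7 had 26.4 in replicate 1 and 56.7 in replicate 2, and that of sls-2.2 had 68.1 and 20.5. C53B7.8 had 33.7 and 35.7 and T08G5.11 had 35.9 and 36.3, so agreement between replicates varied from member to member.

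Letters were also searched within 50 bp of each summit, on both strands. TGATAC, the core known from sine oculis sites in Drosophila, was found at 0 of the 85 thresholded members, which allows a share of up to 3.53%. The same core was found at 2.67% of all nuclear candidates and at 3.54% of thresholded peaks away from structural RNA genes, so the count of 0 is near the background. TCAGGTT, a MEF3-type site, was found at 2 of the 85 (2.35%), against 1.21% and 1.61% in those 2 groups. CAGCTG was found at 3.53% of the 85, against 2.76% and 4.12%. For TTTTT the share was 18.8%, against 57.3% and 37.2%. GAGAGA was found at 8 of the 85 (9.41%), against 30.6% of thresholded peaks away from structural RNA genes, 11.1% of all nuclear candidates and 10.5% of tRNA candidates. GTTCGANNC was found at 20.6% of thresholded snoRNA members, 24.8% of tRNA candidates and 1.22% of all nuclear candidates. It was also found at 1 of the 120 other snoRNA members. TGGCNNAGT was found at 19.1% of thresholded snoRNA members and 5.24% of tRNA candidates. These tRNA shares cover all candidates, thresholded or not. The median GC content of the 101 bases around the summit was 53.5% at thresholded members, 44.1% at the other members, 49.5% at all thresholded nuclear peaks and 41.6% over all nuclear candidates, and its part in the results was not tested.

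Genes for the proteins that make and use these RNAs were read from lists of known members, with a thresholded summit within 1000 bp of a 5′ end counted as a peak. Over all protein-coding genes this share was 8.65%. In the snoRNA particle list it was 5 of 8 genes, namely fib-1 (fibrillarin, signal 290.4), Y48A6B.3 (103), nol-58 (87.9), nola-3 (85.3) and dkc-1 (dyskerin, 81.2). Among the Sm and LSm genes, whose proteins coat snRNAs, it was 4 of 14, snr-1 (279), lsm-3 (141), snr-4 (135) and snr-2 (113). The snr-4 peak is the same as the member at C52E4.8. Of the 11 Integrator genes, whose complex cuts snRNA precursors, it was 2, ints-8 (295) and ints-4 (197). None of 7 SNAP complex genes and none of 9 genes for RNA polymerase III, TFIIIB and TFIIIC had such a peak. Lists this short cannot separate 0 from the 8.65% over all protein-coding genes. Listed names not found in the annotation were left out, namely nola-1, nhp-2, lsm-2, snpc-3.3, bdp-1, ints-10 and ints-12.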

How the data were processed

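Chromatin of 2 biological replicates was precipitated and sequenced, and the authors deposited peak lists per replicate, on pooled reads and after thresholding by irreproducible discovery rate. The deposited lists have the column order of the narrowPeak format and no header, and column 7 holds the signal the authors deposited for each peak, which was used to describe and rank peaks within a list. The deposited −log10 q column was not used. No source used here gives the aligner, the peak caller or the read depths. Lists on ce11 were used, with genes from Ensembl release 115 (WBcel235), symbols (475 of 475 matched) and sequence from RefSeq. Summits were compared with genes in Python 3.11.15 with pandas 2.3.3, and snRNA genes were aligned with Biopython 1.88. The counting steps were tested on simulated data. Members and gene lists were chosen with earlier results of these data known, so results are described with no test. Shares carry 95% Wilson intervals, which reflect counting error alone. Named genes are those at the 25 strongest members, the 10 strongest snRNA members, those nearest the threshold, machinery genes with a peak and hosts of 3 or more snoRNA genes. Genes named by upstream letters or by family were added after their values were seen. Alternatives changed distance, threshold, replicate, window and letters.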

Additional observations from a re-analysis of the deposited data

How the results depend on the processing

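Of 82 alternative values for 17 results, 68 stayed close to the reported value and 14 moved, where close means within 1.5 times for a count and inside the 95% interval of the reported value for a share or median. Requiring the summit inside the gene body left 45 member peaks, 8 thresholded member peaks, 30 snoRNA genes with a candidate and 5 with a thresholded peak, and 13 and 3 snRNA genes, with 17.8% of the member peaks thresholded, since most strong summits lie upstream. The stronger 1245 thresholded peaks included 25.9% of the members. A summit in both replicates was found for 44.1% of members within 50 bp, 66.4% within 200 bp and 73.3% by any overlap of intervals. GTTCGANNC near a member summit, 6.07% within 50 bp, fell to 2.02% within 25 bp and to 2.02% for a longer form. Before thresholded snoRNA genes, the narrower B form was found at 22.4%, an alternative chosen after seeing the data. So were the window running 20 bases into the gene, the letters TGGCNNAGT, and leaving out a replicate for the upstream counts.

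With a single replicate in place of the pooled list, and its 2508 strongest peaks in place of the thresholded list, member peaks numbered 187 to 224 and thresholded members 82 to 83. SnoRNA genes with a candidate numbered 126 to 152 and with a strong peak 65. SnRNA genes numbered 36 to 39 and 13. The median percentile was 78.3 to 85.1. Of the snoRNA genes with both forms 11 had a strong peak with either replicate, and 74.2% of the strong snoRNA summits lay in the 100 upstream bases. The median signal was not recomputed for single replicates, whose scale differs. Read depth is unknown, so no limit from depth can be given.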
